A study of Mus musculus with 4 samples.

Results

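Aortic endothelial cells (EC) rich in immediate early gene RNA were examined among 991 CD31+ cells in 4 SORT-seq libraries of mouse aorta. SORT-seq sorts each cell into a well of its own and counts the 3′ ends of transcripts by unique molecular identifiers (UMIs). Cells with more than 1200 genes detected and at least 3 counts over *Pecam1*, *Cdh5* and *Vwf* were taken as EC, which gave 820 EC. Every EC was scored by the mean of ln(1 + counts per 10000 counts of that cell) over *Nr4a1*, *Junb*, *Ppp1r15a*, *Dusp1*, *Arl4d*, *Ier2* and *Egr1*. The 65 EC with the highest score are called high-score EC below, and the remaining 755 are called other EC. The 7 score genes chose the cells, so their levels are given as a description without a test, and they were left out of all tests.

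Libraries s001 and s002 were labelled Jag1 ECKO and libraries s003 and s004 were labelled Jag1 ECWT. In the study's methods, Jag1 ECKO mice carried *Jag1* fl/fl and a CreERT2 recombinase driven by *CDH5*, an endothelial cadherin gene. Control mice, matched by age and sex, carried *Jag1* fl/fl without Cre. The mice, all male, C57BL/6J in background and aged 1.5 to 3 months, received 2 mg of intraperitoneal tamoxifen in corn oil per day for 5 days. Aortas were taken from the root to below the iliac artery, digested with enzymes at 37°C for 10 min to remove the adventitia and then for 1 h, and sorted for CD31+, CD45- and TO-PRO-3- cells into multiwell plates. The number of mice behind each library is not given in the sources used here, so the spread that p-values measure may be technical. For shares this is the spread between libraries. For genes compared within libraries it is the spread of the difference between high-score and other EC.

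*Jag1*, the floxed Notch ligand gene, went against the labels. In other EC it stood at 169 and 72.0 CPM (counts of the gene per 1000000 counts) in the libraries labelled Jag1 ECKO and at 18.4 and 24.9 CPM in those labelled Jag1 ECWT. The study reported deletion of *Jag1* in Jag1 ECKO mice by qRT-PCR on endothelial RNA and by en face staining. Whether the counted 3′ end lies in the deleted part is not given in the sources used here. Libraries are therefore named by their label throughout, and no direction by genotype is drawn.

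Immediate early genes are transcribed within minutes of a stimulus from factors already present in the cell, without new protein synthesis. Many encode transcription factors, such as the FOS and JUN proteins that pair as AP-1, the zinc finger factor EGR1 and the orphan nuclear receptor NR4A1, and others encode feedback regulators that end the response, such as the phosphatase DUSP1 and the mRNA-decay factor ZFP36. In endothelium they are known to respond to growth factors, cytokines and changes in flow, and they are also known to respond to tissue handling. Classic promoter elements of these genes are the cyclic AMP response element (CRE), which CREB binds, and the CArG box, which serum response factor binds.

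Promoter sequence was taken from the RefSeq table of build GRCm38.p6 for the score genes and for the genes that passed the test described further on. A window of 250 bases before the start site was available for 5 of the 7 score genes and for 7 of the 9 genes that were higher in high-score EC. No window was available for *Ier2*, *Egr1*, *Nfkbiz* and *Dcn*, and bases further upstream were not searched for any gene. The CRE letters TGACGTCA occurred on either strand in 4 of these 12 windows, namely *Ppp1r15a*, *Dusp1*, *Arl4d* and *Btg2*, against 1.55% of all 32851 windows in the table. The AP-1 letters TGANTCA occurred in 0 of the 12 windows and in 6.75% of all windows. The EGR letters GCGNGGGCG occurred in 4 of the 12, *Nr4a1*, *Fosb*, *Zfp36* and *Btg2*, and in 4.70% of all windows, and the CArG box occurred in 1, *Zfp36*, and in 1.47% of all windows. The NF-kB motif occurred in 2, *Fos* and *Fosb*, and in 3.90% of all windows. Both *Zfp36* matches lie in bases that GENCODE vM21 annotates as exon of *Zfp36* itself, and the other matches do not overlap an annotated exon. These matches describe letters in the window and do not show a bound site. The windows below are shown because they hold the full CRE (*Dusp1*, *Arl4d* and *Btg2*) or belong to the gene with the largest difference between high-score and other EC (*Fos*). Each reads 5′ to 3′ in the direction of transcription and leaves out any base that GENCODE vM21 annotates as exon, and capitals mark a match to the CRE, EGR or NF-kB motif. The CRE starts 143 bases before the start site in *Dusp1*, 26 in *Arl4d* and 166 in *Btg2*.
Dusp1, chr17:26508520-26508722, minus strand: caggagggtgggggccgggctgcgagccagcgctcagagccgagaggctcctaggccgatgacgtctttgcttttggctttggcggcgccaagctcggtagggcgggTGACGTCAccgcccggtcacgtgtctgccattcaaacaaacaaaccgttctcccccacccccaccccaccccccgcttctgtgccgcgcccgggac
Arl4d, chr11:101665291-101665540, plus strand: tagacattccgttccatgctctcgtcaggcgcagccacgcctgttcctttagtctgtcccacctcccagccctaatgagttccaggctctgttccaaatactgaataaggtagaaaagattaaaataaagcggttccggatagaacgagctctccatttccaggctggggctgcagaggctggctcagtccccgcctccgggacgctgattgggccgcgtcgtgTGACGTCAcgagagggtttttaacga
Btg2, chr1:134079156-134079405, minus strand: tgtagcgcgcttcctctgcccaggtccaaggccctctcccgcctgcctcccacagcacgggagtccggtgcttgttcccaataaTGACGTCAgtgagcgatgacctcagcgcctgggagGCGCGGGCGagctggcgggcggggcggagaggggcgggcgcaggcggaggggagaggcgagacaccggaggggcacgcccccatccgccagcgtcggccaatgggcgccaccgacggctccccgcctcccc
Fos, chr12:85473640-85473889, plus strand: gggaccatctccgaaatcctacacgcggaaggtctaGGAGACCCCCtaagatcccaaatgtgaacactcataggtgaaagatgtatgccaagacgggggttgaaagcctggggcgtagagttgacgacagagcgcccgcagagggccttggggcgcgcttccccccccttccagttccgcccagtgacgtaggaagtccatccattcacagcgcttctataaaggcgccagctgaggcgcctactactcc

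High-score EC were found in every library, in unequal numbers. They made up 40 of 199 EC in s001 (20.1%, exact 95% interval 14.8 to 26.3), 13 of 236 in s002 (5.51%, 2.97 to 9.24), 8 of 140 in s003 (5.71%, 2.50 to 10.9) and 4 of 245 in s004 (1.63%, 0.447 to 4.13). The intervals are Clopper-Pearson intervals and cover counting error only. Library s001 thus held 61.5% of the high-score EC, and its interval lay above those of the other 3 libraries. With 100 members, or with scores from cells thinned to 2836 counts, the intervals of s001 and s003 overlapped (19.7 to 32.3 against 8.95 to 21.2, and 15.3 to 28.4 against 5.56 to 16.9). When the 65 highest were taken from the 351 EC with fewer than 5 smooth muscle and fibroblast (stromal) counts, the share was 26.5% in s001 and 27.7% in s003, so the order of the libraries depends on which EC are ranked. The mean share was 12.8% over the libraries labelled Jag1 ECKO and 3.67% over those labelled Jag1 ECWT, and this difference did not exceed the spread between libraries (two-sided exact permutation p = 0.667, where 2 against 2 libraries allow no p below 0.33). The s002 and s003 shares were near each other although their labels differ, but among the thinned cells they were 5.83% and 10.2%, and among the 351 EC 13.2% and 27.7%.

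**Figure D1:**
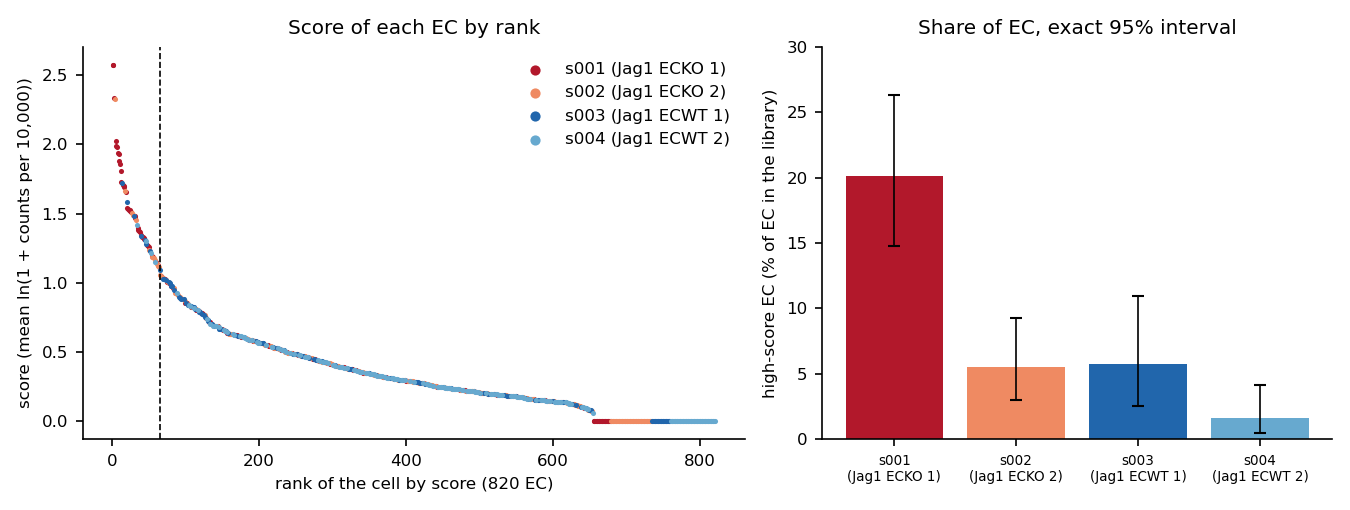
Left, score of each of 820 EC (mean ln(1 + counts per 10,000) over 7 genes) against its rank, coloured by library, with a dashed line after rank 65. Right, high-score EC as a percentage of EC in each library with exact 95% intervals. The score falls smoothly through the line, and s001 has the highest share, 20.1%.

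The score had no gap at the line between the classes. The lowest scores inside were 1.09 and 1.11, and the highest outside were 1.06 and 1.05. Within 0.1 of the lowest member there were 11 high-score EC and 14 other EC. Scores of high-score EC had a median of 1.46 and reached 2.57, against a median of 0.25 in other EC, of which 166 scored 0. The high-score EC are therefore the upper end of a range. Each of them had counts of at least 4 of the 7 score genes, with 4 in 10 cells, 5 in 21, 6 in 24 and all 7 in 10.

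Among the score genes, *Egr1*, *Junb* and *Ier2* were the most widely detected (90.8%, 93.8% and 92.3% of high-score EC), and *Dusp1* and *Nr4a1* had the largest SD of ln(1 + counts per 10000) between high-score EC (1.08 and 1.01). *Egr1* stood at 867, 914, 1158 and 1376 CPM in the high-score EC of s001 to s004 and at 144, 97.4, 131 and 61.5 CPM in other EC. *Junb*, an AP-1 subunit, stood at 813, 713, 591 and 609 CPM against 121, 67.3, 105 and 53.2. The levels of both classes did not overlap for these genes. *Nr4a1* stood at 492, 178, 543 and 52.9 CPM against 38.2, 5.31, 23.3 and 5.53, and its s004 value comes from 1 cell. *Arl4d*, a small GTPase gene, stood at 321, 166, 70.9 and 132 CPM against 52.7, 38.4, 69.8 and 53.2, so that in s003 both classes were nearly level. *Ppp1r15a*, whose product directs dephosphorylation of the initiation factor eIF2α, also came close in s003 (165 against 116 CPM). The score chose these cells, so high levels of its genes follow from the rule. *Egr1*, *Junb* and *Ier2* were high in the chosen cells of each library, while the other score genes contributed unevenly.

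Depth and RNA quality of high-score EC were near those of other EC, apart from depth in s004. The median UMI number of high-score EC was 1.16, 0.934, 0.958 and 1.92 times that of other EC in s001 to s004 (exact sign-flip permutation p = 0.50 over 4 libraries, a number too small for that test to reach 0.05). In s004, where the 4 high-score EC had a median of 9823 UMIs against 5126, their values rest on few and deep cells. The median mitochondrial share was 4.74% against 4.59% in s001, 2.87% against 3.13% in s002, 4.26% against 4.39% in s003 and 4.29% against 4.44% in s004. Library s001 stood apart: nuclear-retained RNAs (*Malat1*, *Neat1*, *Kcnq1ot1* and others) made up a median of 0.942% of counts in high-score EC and 0.743% in other EC of s001, and 2.58 to 3.15% in the classes of the other libraries. Library s001 is also the library with most high-score EC and with most red cell RNA, and the part of these differences in its share was not tested. Deposited totals were 903943 to 1850434 counts per library. Of the well barcodes, which each plate draws from the same set, 86 occurred in all 4 libraries.

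The 22 endothelial genes of a marker list summed to between 10006 and 14156 CPM in high-score EC and between 10887 and 13429 CPM in other EC. The median count over *Pecam1*, *Cdh5* and *Vwf* was 41.6 in high-score EC against 29.1 in other EC of s001 and 67.3 against 34.1 in s004, but 30.1 against 42.2 in s002 and 26.5 against 37.1 in s003, so it was higher in 2 libraries and lower in 2. Leukocyte markers were near 0, with 7 or 8 of 8 markers undetected in the high-score EC of each library. Globin RNA (*Beta-s*) was counted in 12 high-score EC, all in s001, where it stood at 85.8 CPM against 84.3 CPM in other EC. Red cell RNA was counted in 12 of 40 high-score EC and in 32 of 159 other EC (20.1%) of s001, and 65.6% of the *Beta-s* counts of other EC lay in 10 cells.

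To ask which other RNAs differ in these cells, counts were summed over the high-score EC and over the other EC of each library and compared within libraries by edgeR's quasi-likelihood test, with the score genes left out. Of 6818 genes tested, 9 were higher in high-score EC (0.132%) and 5 were lower (0.0733%) at an adjusted p below 0.05, and 262 had an unadjusted p below 0.05. Of the 9 higher genes, 6 are immediate early genes: *Fos*, *Fosb* and *Jun* of the AP-1 family and *Zfp36*, *Btg2* and *Cyr61*. The other 3 were *Nfkbiz*, *Ifit1* and *Dcn*. The 5 lower genes were *Myl9*, *Myh11*, *Tagln* and *Acta2* of smooth muscle and *Cd36*, a fatty acid transporter gene. The median log2 difference of all genes tested was -0.08. DESeq2, run on the same sums, called 6 genes, which were exactly these 6 immediate early genes, so it called 0 genes in each of the other lists described below.

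*Fos* had the largest difference. It stood at 307, 891, 378 and 1191 CPM in the high-score EC of s001 to s004 and at 48.7, 47.2, 12.2 and 24.2 CPM in other EC. The classes did not overlap, and the ratio ran from 6.30 in s001 to 49.2 in s004. The log2 difference was 4.16 ± 0.28 (SE, adjusted p = 1.00e-20, edgeR). *Fos* RNA was counted in 29 of 65 high-score EC and in 10.5% of other EC. With each cell thinned to 2836 counts, which kept 60 high-score and 679 other EC, these shares were 35.0% and 6.77%. In s004 all 45 *Fos* counts came from 2 of the 4 high-score EC.

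The AP-1 partners followed with smaller differences. *Fosb* stood at 67.7, 273, 94.5 and 344 CPM in high-score EC against 39.5, 21.8, 3.67 and 3.46 in other EC, a log2 difference of 3.34 ± 0.50 (adjusted p = 3.21e-06, edgeR). It was rarely detected, in 13 of 65 high-score EC, and its values in s003 came from 1 cell. *Jun*, the main partner of the FOS proteins, stood at 786, 772, 402 and 1324 CPM against 428, 217, 280 and 306, a log2 difference of 1.27 ± 0.20 (adjusted p = 2.04e-05, edgeR). Its ratio was 1.43 in s003, where 11 of 17 counts lay in 1 cell, and 1.84 to 4.32 elsewhere. Without s002 or without s004, neither *Fosb* (adjusted p = 0.245 and 0.129, edgeR) nor *Jun* (0.245 and 0.129) passed the threshold, with log2 differences of 2.54 to 3.25 for *Fosb* and 1.07 to 1.08 for *Jun*. *Fosb* passed in 12 of the 18 alternatives in which it was tested and *Jun* in 15 of 21. *Fosb* was also lost with 100 members (2.60), with scores from thinned cells (2.40), among EC with more than 1500 genes (2.54) and without a library term (3.24). *Jun* was also lost with 40 members (1.18) and without a library term (1.31), and among EC with fewer than 5 stromal counts it had a log2 difference of 0.41 (adjusted p = 0.995, edgeR), or 0.32 (0.999) where no other EC took the place of members left out.

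The other called immediate early genes, *Zfp36*, *Btg2* and *Cyr61*, were higher in each library. *Zfp36*, whose product binds AU-rich elements and promotes decay of inflammatory mRNAs, stood at 578, 701, 591 and 529 CPM in high-score EC against 104, 69.6, 132 and 78.1 in other EC. Its level was thus alike across libraries in the high-score class, and the log2 difference was 2.59 ± 0.23 (adjusted p = 2.41e-14, edgeR). *Btg2*, an antiproliferative gene whose product also acts in mRNA deadenylation, stood at 461, 618, 307 and 371 CPM against 107, 52.5, 69.8 and 62.2 (log2 difference 2.53 ± 0.26, adjusted p = 1.01e-11, edgeR). *Cyr61*, which encodes the secreted matricellular protein CCN1, stood at 1558, 855, 1630 and 2885 CPM against 489, 286, 464 and 728 (log2 difference 1.65 ± 0.17, adjusted p = 6.22e-12, edgeR). The *Cyr61* ratio was the steadiest, between 2.99 and 3.96 in all 4 libraries. *Zfp36*, *Btg2* and *Cyr61* passed the threshold under each of the 21 alternatives run and *Fos* under 20. Their differences were smallest, for genes that passed, when the 65 highest were taken from EC with fewer than 5 stromal counts, at 2.58 for *Fos*, 1.64 for *Zfp36*, 2.02 for *Btg2* and 1.02 for *Cyr61*. *Fos* did not pass (log2 difference 2.41, adjusted p = 0.0967, edgeR) when members with 5 or more stromal counts were left out and not replaced, a fit of s001 to s003 because s004 kept 1 high-score EC.

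**Figure D2:**
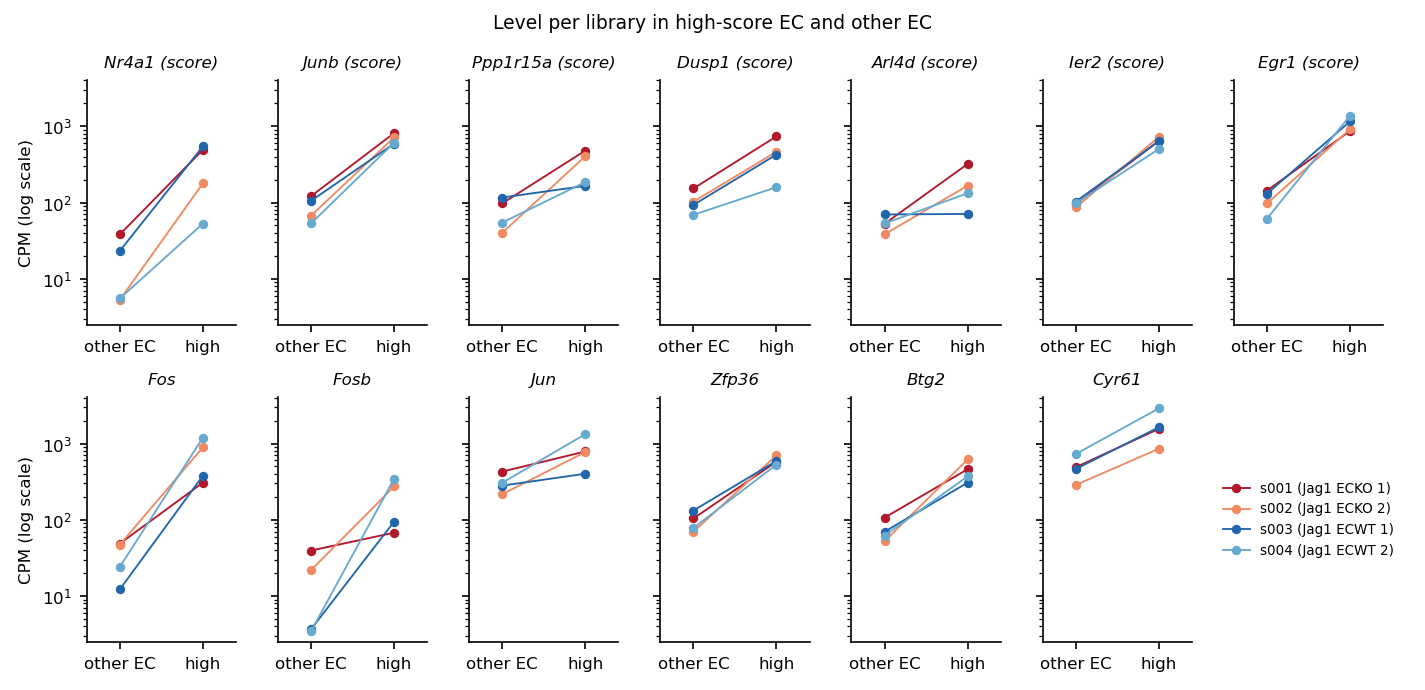
Level (CPM, log scale) of the 7 score genes, which chose the cells, and of 6 further immediate early genes in other EC (left points) and high-score EC (right points), 1 line per library. The lines of Fos, Zfp36, Btg2 and Cyr61 rise in each library, while Arl4d is level in s003.

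Counts of several of these 6 genes were found more often in high-score EC than in other EC. At least 3 of the 6 genes were counted in 56 of 65 high-score EC (86.2%) and in 207 of 755 other EC (27.4%). By library the numbers were 36 of 40, 12 of 13, 6 of 8 and 2 of 4 high-score EC in s001 to s004, against 31.4%, 23.3%, 25.8% and 29.5% of other EC. In thinned cells the shares were 68.3% and 14.1%. The 6 genes were picked by the test on the same cells, so these shares are a description. Whether the genes occur together beyond what their single detection shares give was not tested. In 6 high-score EC fewer than 2 of the 6 genes were counted, so the score and these genes do not mark identical cells.

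**Figure D3:**
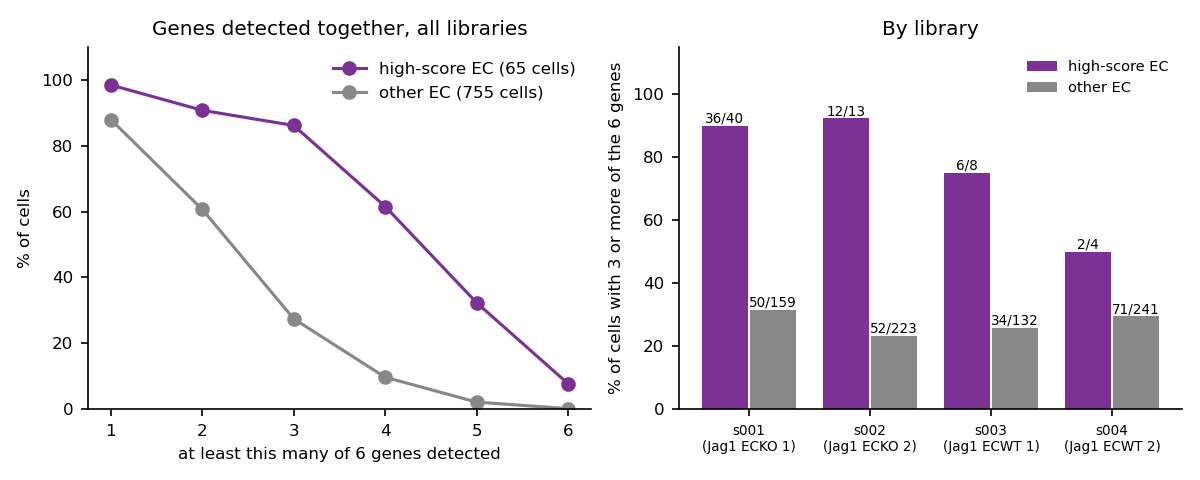
Left, percentage of high-score EC (65 cells) and other EC (755 cells) with at least the given number of Btg2, Cyr61, Fos, Fosb, Jun and Zfp36 detected. Right, percentage with 3 or more of them in each library, with cell numbers above the bars. The shares at 3 or more are 86.2% and 27.4% over all libraries, and the gap is smallest in s004, where there are 4 high-score EC.

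Most other genes of the response lists did not pass the test. Since 0.132% of all genes were called higher and 0.0733% lower, a count of 0 in any of the lists below is near the background and is no result about that list. Of 14 AP-1 and related genes listed, 13 were in the table, 11 were tested and 3 passed, with a list median of 0.27 on the log2 scale. *Atf3*, a stress-induced bZIP factor, fell just outside the threshold (log2 difference 2.36 ± 0.59, adjusted p = 0.0588, edgeR), with 21 counts in high-score EC. It stood at 27.1, 143, 47.3 and 26.5 CPM against 11.9, 14.2, 7.34 and 6.91, higher in each library. *Jund*, a constitutively expressed AP-1 gene, had a log2 difference of 0.80 ± 0.23 (adjusted p = 0.219, edgeR) and was not higher in s001. Of 19 other immediate early transcription factors tested, 0 passed by edgeR and 3 had an unadjusted p below 0.05, with a median of 0.24. *Id3*, a dominant-negative helix-loop-helix factor, had the best-supported value of those named (0.65 ± 0.19, adjusted p = 0.206, edgeR).

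The flow-regulated factors *Klf2* and *Klf4*, which maintain a quiescent endothelium, did not pass the test. *Klf2* stood at 655, 439, 1110 and 212 CPM in high-score EC and at 426, 224, 595 and 309 CPM in other EC, and *Klf4* at 628, 356, 638 and 185 CPM against 400, 198, 420 and 260. Both were above other EC in s001 to s003 and below them in s004. Their log2 differences were 0.52 ± 0.21 and 0.43 ± 0.22, with an adjusted p of 0.999 for each (edgeR). *Nos3*, endothelial nitric oxide synthase, had a log2 difference of 0.35 ± 0.20. Of 20 flow-responsive endothelial genes tested 0 passed, near the background share, and the list median was 0.03.

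Of 24 other immediate early response genes tested, 3 passed (*Btg2*, *Zfp36* and *Cyr61*), 7 had an unadjusted p below 0.05 in the higher direction and the median was 0.36. The GTPase gene *Rhob* (0.83 ± 0.21, adjusted p = 0.0588) and the kinase gene *Sgk1* (0.91 ± 0.23, adjusted p = 0.0793, edgeR) were higher in each library but did not pass. Of 7 MAP kinase feedback genes tested, 0 passed by edgeR. *Dusp6*, which encodes an ERK phosphatase, had a log2 difference of 0.69 ± 0.50. The list median was 0.32, and most of its genes had few counts.

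Among 13 NF-kB feedback and inflammatory genes tested, *Nfkbiz* passed. It encodes an atypical IκB protein, and it stood at 54.2, 356, 23.6 and 159 CPM in high-score EC against 48.7, 29.5, 29.4 and 21.4 in other EC (log2 difference 1.89 ± 0.45, adjusted p = 0.0380, edgeR). It was higher in s002 and s004, nearly level in s001 and lower in s003. It passed in 9 of 19 alternatives. Its call was lost without s002 (log2 difference 0.85) or without s004 (1.73), and also with 100 members (1.64), with scores from thinned cells (1.76), with ranking within each library (1.62), among EC with more than 1500 genes (1.53), without EC with red cell counts (2.11), without a library term (2.11) and by DESeq2 (1.78). The adhesion molecule genes *Icam1* and *Vcam1* had log2 differences of 0.01 ± 0.23 and 0.17 ± 0.22 and did not pass. The interferon-induced gene *Ifit1* stood at 18.1, 226, 638 and 0 CPM against 25, 36, 51.4 and 32.5 (log2 difference 1.93 ± 0.44, adjusted p = 0.0183, edgeR). In s003, 24 of its 27 counts lay in 1 cell. Its call was lost without s002, without s003 or without s004, with log2 differences of 1.53, 1.15 and 2.31. It passed in 7 of 19 alternatives, and with scores from thinned cells its difference was 0.71 (adjusted p = 0.998, edgeR). Its highest value was 3.42 (adjusted p = 1.81e-05, edgeR), without EC with 5 or more stromal counts and with members not replaced. It was also lost with 40 members (1.88) or 100 members (1.39), with ranking within each library (1.56), among EC with more than 1500 genes (1.74) and without EC with red cell counts (2.08).

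Heat shock and chaperone genes had 0 of 20 tested called by edgeR, 3 with an unadjusted p below 0.05 upward and 1 downward, and a median of 0.03. *Hsp90ab1* and *Hspa8*, which encode constitutive chaperones, had log2 differences of -0.07 ± 0.17 and 0.25 ± 0.20. Genes of the integrated stress and unfolded protein response had 0 of 16 called, 0 upward and 1 downward at an unadjusted p below 0.05, and a median of -0.05. *Hspa5*, the endoplasmic reticulum chaperone BiP, had a log2 difference of -0.25 ± 0.25. This list holds genes of the pathway that the score gene *Ppp1r15a* closes by feedback. Delayed response genes, such as the vasoconstrictor gene *Edn1* (0.29 ± 0.24), had 0 of 5 called.

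The medians of the endothelial identity and Notch lists were near the median of all genes. Of 21 endothelial identity genes tested 0 were called by edgeR, 1 had an unadjusted p below 0.05, and the median was -0.14. *Tie1*, an endothelial receptor kinase gene, had a log2 difference of -0.09 ± 0.18, and the phosphatase gene *Ptprb* had -0.30 (unadjusted p = 0.0527, edgeR). Of 17 Notch pathway genes tested 0 were called, again near the background share, and 0 had an unadjusted p below 0.05, with a median of -0.11. *Notch1* (-0.27 ± 0.25), *Notch4* (0.35 ± 0.32) and the target gene *Hey2* (-0.12 ± 0.27) did not pass. *Jag1* stood at 149, 47.5, 307 and 52.9 CPM in high-score EC against 169, 72.0, 18.4 and 24.9 in other EC (0.75 ± 0.42, adjusted p = 0.999, edgeR), and 10 of the 13 counts in s003 lay in 1 cell.

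**Figure D4:**
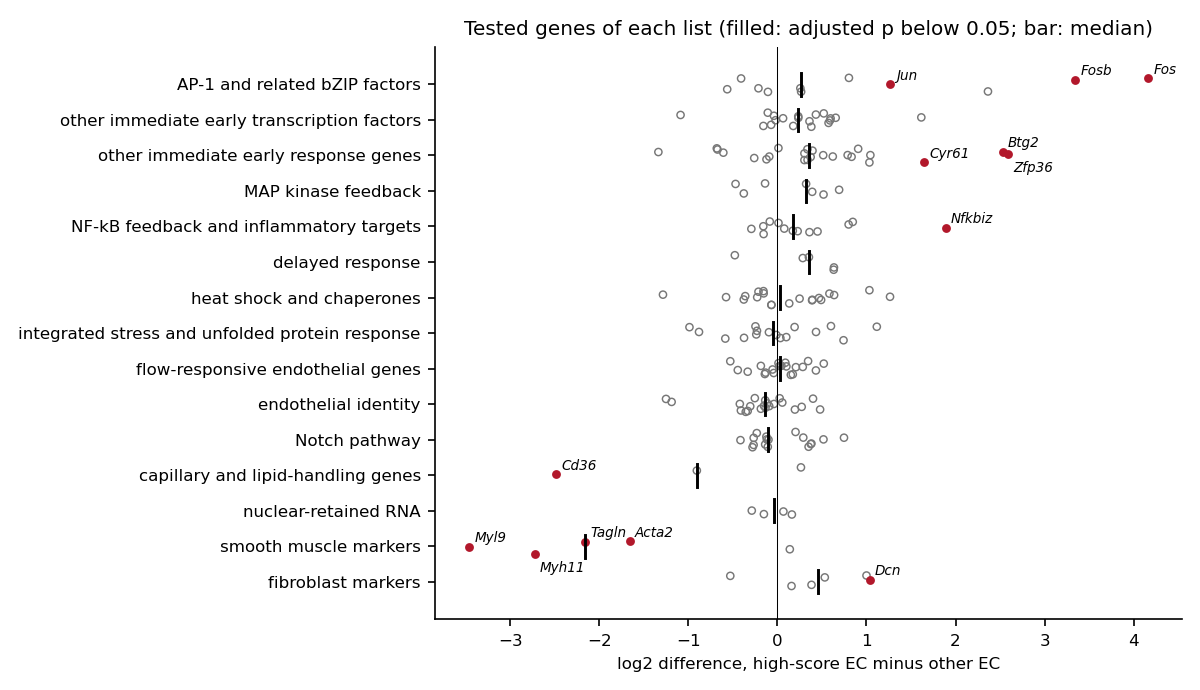
Log2 difference between high-score and other EC for the tested genes of 15 lists. Filled points are genes with an adjusted p below 0.05 (edgeR), open points are other tested genes and black bars are list medians. The called genes lie in the immediate early, NF-kB, capillary, smooth muscle and fibroblast lists.

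Smooth muscle RNA was lower in high-score EC, and most counts of the called markers in other EC lay in a small number of cells. Of 5 smooth muscle markers tested 4 were called lower, with a list median of -2.16. *Acta2*, smooth muscle actin, stood at 298, 190, 0 and 397 CPM in high-score EC against 995, 854, 200 and 413 in other EC (log2 difference -1.66 ± 0.25, adjusted p = 6.63e-06, edgeR), and in s004 the classes were nearly level. *Myh11*, *Tagln* and *Myl9*, contractile genes, had log2 differences of -2.72 ± 0.46, -2.16 ± 0.40 and -3.46 ± 0.66. Without s002 these 4 calls were lost, with log2 differences of -1.44 for *Acta2*, -2.37 for *Myh11*, -1.79 for *Tagln* and -2.95 for *Myl9*, and without s001 that of *Myl9* was lost too (-2.52). With 100 members, and among EC with more than 1500 genes, the 4 calls were also lost and the differences were smaller: -0.89 and -0.74 for *Acta2*, -1.09 and -0.92 for *Myh11*, -0.91 and -0.74 for *Tagln* and -0.80 and -0.58 for *Myl9*. None of the 4 passed without a library term, *Tagln* did not pass with scores from thinned cells (-1.004), and *Myh11* (-2.03) and *Myl9* (-2.85) did not pass with thinned counts. In all, *Acta2* passed in 12 of 21 alternatives, *Myh11* and *Tagln* in 11 of 19 and *Myl9* in 8 of 15. The share of cells with an *Acta2* count was 60.0% in high-score EC and 56.8% in other EC, so the difference lay in cells with many counts. Smooth muscle and fibroblast markers summed to 50 or more counts in 45 EC, of which 5 were high-score EC and 40 other EC. These 40 cells held 66.4% of the *Acta2*, 77.5% of the *Myh11*, 65.8% of the *Tagln* and 84.5% of the *Myl9* counts of other EC. The cells were picked by counts of these same markers, so high shares follow in part from that choice.

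Without those 45 EC, and with no other EC moved into the high-score class, the 6 immediate early genes were still called and the smooth muscle calls were lost. Those EC were picked by counts of the smooth muscle and fibroblast markers themselves, so smaller differences of these markers follow in part from that choice. The immediate early genes took no part in it. *Fos* then had a log2 difference of 4.38 and *Cyr61* of 1.61, while *Acta2* had -0.28, *Tagln* -0.68 and *Myh11* -0.76, with an adjusted p of 0.999 for each of the latter 3 (edgeR). *Nfkbiz* lost its call (1.74, adjusted p = 0.0639, edgeR). With the 5 members left out replaced by the next EC in rank, *Acta2* had -0.10, *Dcn* -0.22 and *Nfkbiz* 1.71, the last with an adjusted p of 0.0450 (edgeR). *Dcn*, the proteoglycan decorin gene of fibroblasts and of a subset of aortic EC, followed the same pattern in the higher direction. It stood at 470, 1888, 3898 and 2462 CPM in high-score EC against 507, 1158, 872 and 696 in other EC (log2 difference 1.04 ± 0.19, adjusted p = 2.89e-04, edgeR). Of the 521 *Dcn* counts of high-score EC, 74.9% lay in the 5 cells with many stromal counts, and without the 45 EC its log2 difference was -0.21. The 8 fibroblast markers summed to 1278, 2708, 5718 and 3044 CPM in the high-score EC of s001 to s004 against 1149, 2047, 1398 and 1516 CPM in other EC, higher in each library, with 1 to 3 markers at 0 in the high-score class. In that class 1 cell held 67 of the 283 counts in s001, 99 of 228 in s002 and 138 of 242 in s003. In s004 1 cell held 96 counts, most of the total. The higher sums thus rest in part on 1 cell per library, and levels without these cells were not computed. Of 6 fibroblast markers tested, 5 were above 0, the median was 0.46 and *Lum*, a proteoglycan gene, had 1.00 ± 0.42 (adjusted p = 0.999, edgeR). *Dcn* was the 1 called, and its call was also lost without s002 (1.17), without s003 (0.71) or without s004 (0.86). It passed in 9 of 19 alternatives, and its difference was smaller with 100 members (0.51), among EC with more than 1500 genes (0.46) and in the 2 libraries with at least 10 members (0.30), where it did not pass.

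**Figure D5:**
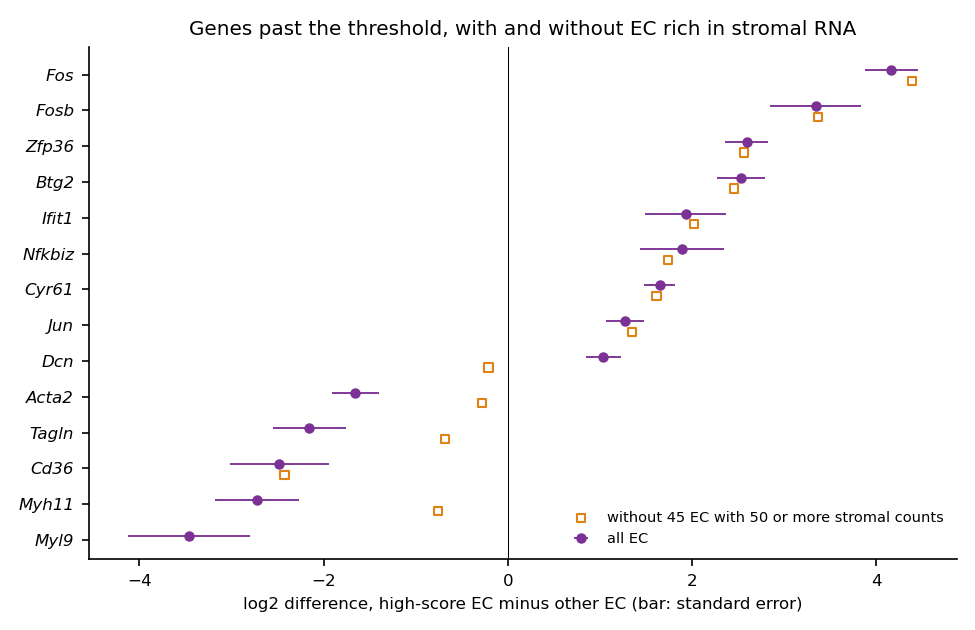
Log2 difference ± SE of the 14 genes past the threshold over all EC (circles) and the log2 difference without the 45 EC with 50 or more smooth muscle and fibroblast counts, 60 high-score EC kept (squares). Fos, Fosb, Zfp36, Btg2, Cyr61 and Jun stay near their values, while Acta2, Tagln and Myh11 move towards 0, Dcn goes from 1.04 to -0.21, and Myl9 had too few counts for a test without those cells.

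*Cd36*, which marks capillary and lipid-handling endothelium, was lower. It stood at 54.2 CPM in the high-score EC of s001 and at 0 in the other 3 libraries, against 238, 48.4, 63.7 and 24.9 CPM in other EC (log2 difference -2.48 ± 0.53, adjusted p = 0.00692, edgeR). Counts of *Cd36* were found in 2 of 65 high-score EC and in 53 of 755 other EC (7.02%), and 61.0% of the counts of other EC lay in 10 cells. Its call was lost without s002 (log2 difference -2.33), without s004 (-2.41) or without s001, and without s001 no high-score EC had a *Cd36* count, so that no fold can be given. *Cd36* passed in 12 of 21 alternatives. It was also lost without EC with red cell counts (-1.77, adjusted p = 0.594), with thinned counts (-2.41, adjusted p = 0.204), without a library term (-1.64, adjusted p = 0.983) and among EC with fewer than 5 stromal counts (-0.999, adjusted p = 0.995, edgeR), or -2.40 with members not replaced (adjusted p = 0.249, edgeR). Of the 3 genes of this list tested, *Fabp4* (0.26 ± 0.27) and *Fabp5* (-0.90 ± 0.68) did not pass. The tested defining genes of the other aortic EC subsets did not pass either, apart from *Dcn*. The median was 0.55 for the *Dcn*, *Sfrp2*, *Thbs1* and *Gdf6* subset and -0.07 to 0.06 for the 4 other subsets with more than 1 gene tested. Of the *Vcan*, *Hapln1*, *Nog* and *Igf2* subset *Igf2*, a growth factor gene, was tested, and it stood at 221, 23.8, 118 and 132 CPM in high-score EC against 323, 175, 277 and 166 CPM in other EC, lower in each library (log2 difference -1.04 ± 0.30, adjusted p = 0.220, edgeR).

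To see whether the differences stop at rank 65, the next 65 EC by score (20, 15, 24 and 6 in s001 to s004, with scores down to 0.73) were compared with all lower-ranked EC. Of 5859 genes tested, 4 were called (0.0683%): *Btg2* (log2 difference 1.43 ± 0.29, adjusted p = 0.0319), *Cyr61* (0.95 ± 0.17, adjusted p = 0.00791) and *Sfrp2* (1.54 ± 0.29, adjusted p = 0.0176) were higher and *Igfbp5* (-2.95 ± 0.49, adjusted p = 0.00665, edgeR) was lower. *Fos* had a log2 difference of 1.74 ± 0.48 (adjusted p = 0.707), *Zfp36* of 1.11 ± 0.27 (adjusted p = 0.201) and *Jun* of 0.76 ± 0.19 (adjusted p = 0.341, edgeR). The level of *Btg2* in the next 65 EC was 168, 127, 183 and 185 CPM in s001 to s004 and that of *Cyr61* was 820, 581, 864 and 1109 CPM, between the 2 classes in each library. The call of *Cyr61* was lost without s002 (0.88) or without s003 (0.89), and that of *Btg2* without s002 (1.43), without s003 (1.26) or without s004 (1.37). The call of *Sfrp2* was lost without s003 (1.33) or without s004 (1.14) and that of *Igfbp5* without s002 (-1.72) or without s003 (-3.06), and without s001 *Igfbp5* was not tested. Of these 4 genes DESeq2 called *Cyr61* alone, and without the filter on low counts *Btg2* (adjusted p = 0.102) and *Cyr61* (0.101, edgeR) were not called. Without a library term none of the 4 was called. The difference between the 2 fits was not tested.

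Whether the difference between high-score and other EC depended on the label was tested with an interaction term. *Fos*, *Zfp36*, *Btg2*, *Cyr61*, *Jun* and *Fosb* did not pass this test, with label differences (Jag1 ECKO minus Jag1 ECWT, log2) of -1.61 ± 0.50 for *Fos* (adjusted p = 0.178), 0.69 ± 0.43 for *Zfp36* (0.873), 0.68 ± 0.49 for *Btg2* (0.914), -0.02 ± 0.30 for *Cyr61* (0.996), 0.11 ± 0.36 for *Jun* (0.996) and -3.38 ± 0.93 for *Fosb* (0.0765, edgeR). Without the 45 EC with 50 or more stromal counts *Fos* had a label difference of -2.01 ± 0.56 (adjusted p = 0.115, edgeR), and with the members left out replaced by the next EC in rank it was -2.19 ± 0.55 and passed (adjusted p = 0.0401, edgeR). The other 5 genes did not pass in either fit. The libraries labelled Jag1 ECWT held 12 high-score EC in all and those labelled Jag1 ECKO held 53.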

How the data were processed

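Single-cell libraries were made by the authors with SORT-seq from sorted aortic cells and sequenced in pairs of 75 bases on an Illumina NextSeq. The authors aligned reads to GRCm38 with STAR, whose version is not given in the sources used here, and deposited, for each cell, an estimated count of every gene's transcripts, corrected for chance repeats of a UMI and not normalized between cells. The submitters' processing notes also name Seurat 3.1. Each column's name gave its library. No filter on cells other than those stated was applied, and no doublet caller was run: 1 high-score EC had over 3 times the median UMI number of its library.

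Estimated counts were rounded to whole numbers and summed per library and class. Sums were compared with edgeR 4.0.16 in R 4.3.3 (TMM scaling without the score genes, filterByExpr, a library term, quasi-likelihood test, Benjamini-Hochberg adjustment over all genes tested). Levels in CPM are per 1000000 counts summed over the cells of a class in a library. SE is the log2 difference divided by the square root of F. DESeq2 1.42.0, other scalings, filters, member numbers, score depths and EC rules, and leaving out each library, were alternatives. Analyses without EC with red cell counts, without EC with 50 or more stromal (smooth muscle and fibroblast) counts, without replacing members left out, and by label, the shares among EC with few stromal counts, and all alternatives for the next 65 EC, were chosen after seeing the data. Thinning drew 2836 counts per cell and kept 739 of 820 EC. The 171 cells outside the EC rule, 167 of them with 1200 or fewer genes, entered no test. The members and gene lists were chosen with earlier results of these data known. The script was tested on simulated data. Genes named are the score genes, the called genes with the same direction in each library, list members that were called or among the 6 tested with the highest CPM of their list, *Jag1* and red cell genes. *Ifit1*, which was called without the same direction in each library, and *Atf3*, with genes of the label test that are on no list, were named after their values were seen. Figures were drawn with matplotlib 3.10.9.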

Additional observations from a re-analysis of the deposited data

Results flagged for a closer look

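The difference between high-score and other EC differed between the labels for 23 of 6818 genes (12 higher and 11 lower under Jag1 ECKO, interaction term, edgeR, adjusted p below 0.05). Without the 45 EC with 50 or more stromal counts 9 genes passed, and 13 with the 5 members left out replaced by the next EC in rank, when *Fos* also passed (-2.19, adjusted p = 0.0401, edgeR). In all EC, 12 high-score EC stand behind the libraries labelled Jag1 ECWT. The largest counts often lay in 1 cell: 45 of 51 *Igfbp5* counts and 35 of 37 *Slc6a6* counts in the high-score EC labelled Jag1 ECWT, and 148 of 187 *Sfrp2* counts and 47 of 52 *Coch* counts in those labelled Jag1 ECKO. Values resting on 1 cell describe that cell.

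*Dcn* was flagged because its label difference was -1.44 on the log2 scale (SE 0.28, adjusted p = 7.12e-04, edgeR). Its high-score counts were 263 under Jag1 ECKO, with 87 in 1 cell, and 258 under Jag1 ECWT, with 94 in 1 cell. Its sign turned without the 45 EC, to 4.56 (adjusted p = 2.29e-06), or 4.07 with members replaced (adjusted p = 2.51e-06, edgeR). *Jag1* was flagged because its label difference was -3.02 (SE 0.72, adjusted p = 0.0126, edgeR). Its high-score counts were 37 under Jag1 ECKO and 15 under Jag1 ECWT, 10 of the latter in 1 cell. Its call was lost without the 45 EC (-2.88, adjusted p = 0.0727), also with members replaced (-2.70, adjusted p = 0.0978, edgeR).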

How the results depend on the processing

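The number of genes called in high-score EC (14) was 6 with 100 members, 24 when EC were ranked within each library, 6 among EC with more than 1500 genes, 4 without EC with 5 or more stromal counts with or without members replaced, 9 without EC with 50 or more stromal counts where members were not replaced, 4 without a library term, 22 in the 2 libraries with at least 10 members and 6 by DESeq2. With other alternatives it was 11 to 21. Leaving out each library gave 4 to 26 calls, 26 without s001, 4 without s002, 15 without s003 and 7 without s004. The number called for the next 65 EC (4) was 1 by DESeq2 and 0 without a library term, and 0 to 7 when a library was left out (7 without s001, 1 without s002, 0 without s003 and 2 without s004). With 40 members, the share of EC was 14.6% in s001, 2.54% in s002 and 0.408% in s004. With 100 members it was 10.2% in s002 and 14.3% in s003. Without EC with 5 or more stromal counts s003 (27.7%) came before s001 (26.5%), s002 (13.2%) and s004 (6.38%), out of fewer EC. In s003 it was 10.2% with scores from thinned cells and 9.24% among EC with more than 1500 genes. The sign changed for *Acta2* (0.16 without EC with 5 or more stromal counts, 0.062 with members not replaced), *Dcn* (-0.22 without EC with 50 or more, -0.21 with members not replaced) and *Igfbp5* (-3.08 in libraries with at least 10 members), and the cause was not tested. Of these changed values that of *Igfbp5* passed (adjusted p = 3.62e-05, edgeR). Over all libraries *Igfbp5* had 0.41, with 45 of 57 high-score counts in 1 cell. Without EC with 5 or more stromal counts, 3193 genes were tested and 65 members were chosen again, of which 27 were among the first 65; with members not replaced, 3380 genes were tested in 3 libraries.

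Depth limits the 4 and 8 high-score EC of s004 and s003, where a gene at 1 count in a class stands at 26.5 or 23.6 CPM. No paired analysis was possible because replicate numbers were given in accession order and pair no libraries across labels; both classes were compared within each library.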

Other observations

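Cells outside the EC rule also reached the score of the lowest high-score EC: 12 of 73 in s001, 1 of 37 in s002, 1 of 25 in s003 and 1 of 36 in s004. The library with the largest share of high-score EC therefore also held most such cells. Ranking within each library kept 41 of the 65 high-score EC, and scores from thinned cells kept 52.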
